A study of Homo sapiens with 4 samples.

Results

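In Huh7, an established line from a human liver tumour, 2857 regions of open chromatin carried an ATAC-seq peak in 3 libraries and none in the library of ARID1A-depleted cells treated with rapamycin. The peaks of all 4 libraries were merged wherever they shared at least 1 base, which gave 69838 regions, and a region was a member if it overlapped a peak in every list except that of shARID1A cells in rapamycin. Members were thus chosen by the presence and absence of peaks in these same lists, so their absence from shARID1A rapamycin is a description and not a finding. The libraries were shARID1A cells with 100 nM rapamycin for 6 h, shARID1A cells with DMSO, shControl cells with 100 nM rapamycin for 6 h and shControl cells with DMSO. Each group held 1 library of 50000 cells, so the spread between cultures is unknown and no p-value was computed. Intervals on shares are exact 95% binomial intervals and cover counting error only. The sources used here do not say whether the hairpin lines were clones or pools, and the knockdown itself was not checked here, since peaks do not measure the transcript that a hairpin acts on.

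ARID1A is the subunit that helps the BAF form of the SWI/SNF remodeller engage chromatin, and BAF keeps nucleosomes away from enhancers more than from promoters. Rapamycin binds FKBP12 and inhibits mTORC1, the kinase complex that couples growth to nutrients and is often active in liver cancer. ATAC-seq reads where a transposase can insert adapters, so a peak marks accessible DNA, such as an active promoter or enhancer, without saying which factor occupies it. In a library of many cells, fewer cells with an open site and a less open site per cell cannot be told apart.

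Sequences could be shown for members that cover the promoter window of a RefSeq gene, from 250 bases before to 50 bases after its start on GRCh38.p14. The first 3 below are the strongest members that cover such a window of a coding gene in full, and the fourth is the strongest of them with an AP-1 motif, chosen after the values were seen. Capitals mark SP/KLF motifs (GGGCGG), ETS motifs (CCGGAAGT), NFY motifs (CCAAT) and AP-1 motifs (TGANTCA), searched on both strands, and overlapping matches run together.
LLGL1, chr17:18225385-18225684, plus strand: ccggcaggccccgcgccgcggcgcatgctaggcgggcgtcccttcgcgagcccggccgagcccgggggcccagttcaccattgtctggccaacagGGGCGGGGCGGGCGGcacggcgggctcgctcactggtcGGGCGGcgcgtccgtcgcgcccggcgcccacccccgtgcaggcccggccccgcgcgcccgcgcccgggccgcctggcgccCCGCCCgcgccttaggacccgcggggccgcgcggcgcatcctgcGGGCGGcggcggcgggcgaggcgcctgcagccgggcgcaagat
INO80B, chr2:74454837-74455136, plus strand: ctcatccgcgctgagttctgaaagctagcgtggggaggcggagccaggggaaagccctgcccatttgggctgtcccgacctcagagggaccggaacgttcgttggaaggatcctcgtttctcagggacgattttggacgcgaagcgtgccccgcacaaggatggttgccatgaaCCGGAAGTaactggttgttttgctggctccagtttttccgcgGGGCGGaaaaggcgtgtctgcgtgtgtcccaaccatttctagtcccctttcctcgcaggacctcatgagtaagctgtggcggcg
KCTD17, chr22:37051492-37051791, plus strand: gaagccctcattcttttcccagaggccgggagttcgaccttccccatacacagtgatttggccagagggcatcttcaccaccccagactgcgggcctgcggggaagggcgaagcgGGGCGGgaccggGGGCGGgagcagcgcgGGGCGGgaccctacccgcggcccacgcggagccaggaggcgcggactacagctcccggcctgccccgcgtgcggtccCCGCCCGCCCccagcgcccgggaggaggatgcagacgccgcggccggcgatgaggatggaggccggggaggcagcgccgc
VEGFD, chrX:15384364-15384663, minus strand: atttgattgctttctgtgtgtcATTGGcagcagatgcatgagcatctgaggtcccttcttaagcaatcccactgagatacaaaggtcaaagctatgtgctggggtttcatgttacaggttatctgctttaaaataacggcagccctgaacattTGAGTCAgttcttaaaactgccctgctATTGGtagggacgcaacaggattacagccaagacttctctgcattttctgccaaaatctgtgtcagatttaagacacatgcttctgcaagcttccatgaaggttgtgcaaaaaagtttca
The LLGL1 window held 6 SP/KLF matches and a GC content of 84.0%, the KCTD17 window 5 and 74.3%, and the INO80B window 1 SP/KLF and 1 ETS match at 59.0%. The VEGFD window held 0 SP/KLF matches, 1 AP-1 match and 2 NFY matches, with a GC content of 42.7%. LLGL1 encodes a cell polarity scaffold, INO80B a subunit of the INO80 chromatin remodeller, KCTD17 an adaptor of cullin ubiquitin ligases, and VEGFD a growth factor of lymphatic vessels.

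Another 5 members overlapped a microRNA hairpin, and 1 mature sequence of each hairpin is shown with the seed, bases 2 to 8, in capitals.
hsa-miR-122-5p: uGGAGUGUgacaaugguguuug
hsa-miR-148b-3p: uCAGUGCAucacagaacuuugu
hsa-miR-376a-3p: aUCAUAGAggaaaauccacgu
hsa-miR-300: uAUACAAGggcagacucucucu
hsa-miR-7973: uGUGACCCuagaauaauuac
hsa-miR-3193: uCCUGCGUaggaucugaggagu
No seed was shared between them. The miR-122 hairpin, whose product is the most abundant microRNA of hepatocytes, lies on chromosome 18 and shared 7 of its bases with the edge of a member at chr18:58451152-58452138. That peak was a weak one, at 80.0, 94.8 and 58.2 on the percent rank scale in shARID1A DMSO, shControl rapamycin and shControl DMSO. Percent rank is the rank of the authors' peak score divided by the length of the list, so that 0 is the strong end and 100 the weak end. The member over MIR148B at chr12:54336507-54337672 stood at 67.4, 58.2 and 72.9 in the same order, and that over MIR376A1 and MIR300, in the imprinted microRNA cluster of chromosome 14, at 62.0, 44.9 and 51.8. MIR7973-1 and MIR7973-2 lie on opposite strands within 1 member on chromosome 15. Hairpins were overlapped by 0.175% of the members (0.0568 to 0.408) and by 0.367% of the regions in all 4 lists (0.304 to 0.440). These shares were not matched for rank, width or location.

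The lists held 44760 peaks in shARID1A rapamycin, 45700 in shARID1A DMSO, 49783 in shControl rapamycin and 52192 in shControl DMSO, and read depth was unknown. Promoter peaks were present at 7, 6, 7 and 8 of 12 hepatocyte marker genes in that order, at 2, 2, 2 and 3 of 6 leukocyte markers, at 0 of 5 endothelial markers in every list, at 2, 3, 2 and 2 of 5 markers of fibroblasts and stellate cells and at 2 of 4 neuron markers in every list. Their part in the results was not tested. The shARID1A rapamycin list skips 0 of its peak numbers, so a missing row is not seen there. The shARID1A DMSO list skips 6666 numbers and the shControl rapamycin list 1093, so more regions may belong to the set: at most 1554 regions absent from both shARID1A lists fall where shARID1A DMSO skips a number, and at most 93 regions where shControl rapamycin skips one.

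Members were mainly distal elements. Of the 34442 regions held by the other 3 lists, 8.30% were absent from shARID1A rapamycin (8.01 to 8.59). Among distal regions, with a centre over 1 kb from the nearest transcription start site (TSS) in the authors' annotation, 2634 of 22599 were absent (11.7%, 11.2 to 12.1), against 223 of 11843 promoter regions (1.88%, 1.65 to 2.14). The same count for the other lists gave 6.75% absent from shARID1A DMSO alone, 4.50% from shControl rapamycin alone and 4.26% from shControl DMSO alone. The value for shARID1A DMSO may be too high, since up to 1273 of its 2288 absent regions lie where that list skips a peak number, and without them it would be 2.9965%, below both shControl lists. The same bound is 71 of 1487 regions for shControl rapamycin, which gives 4.28%. Statements on what shARID1A DMSO lacks hold for the list as deposited, and whether the skipped numbers stood for peaks was not tested. Distal regions set these lists apart, with 11.7% absent from shARID1A rapamycin, 9.77% from shARID1A DMSO, 6.20% from shControl rapamycin and 5.61% from shControl DMSO. Their intervals overlapped between both shControl lists and between no other pair. For promoter regions the shares were 1.88%, 1.06%, 1.42% and 1.86%, so shARID1A rapamycin lacked about as many promoters as shControl DMSO did.

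The lists differ in length, and length moved with these shares. With the 44760 top-scoring peaks of every list, 6.88% of regions were absent from shARID1A rapamycin alone, 5.70% from shARID1A DMSO, 4.70% from shControl rapamycin and 5.55% from shControl DMSO. The share for shARID1A rapamycin was again the highest of the 4, and those for shARID1A DMSO and shControl DMSO were close to each other. With the stronger 50% of each list the shares were 6.95%, 4.23%, 3.68% and 3.56%, and 1331 regions met the rule. This setting also cuts the shARID1A rapamycin list, so a region that meets it can hold a weaker peak there. The 1331 are thus not the stronger part of the 2857 members, of which 134 lay in the stronger 50% of all 3 lists.

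Absence from shARID1A rapamycin depended on how strong a region was elsewhere. Regions were ordered by their mean percent rank over the 3 lists that hold them. Of the 4722 regions with a mean rank below 10, the strongest, 0 were absent, which allows a share of up to 0.0781% (exact upper bound). The share was 5.77% at mean ranks of 40 to 50, 19.9% at 60 to 70 and 56.2% at 90 to 100. At ranks of 80 to 90 it was 41.7% (38.9 to 44.6) for shARID1A rapamycin and 38.6% (35.8 to 41.5) for shARID1A DMSO, against 27.4% for shControl rapamycin and 24.5% for shControl DMSO. In each of the 5 bins above a rank of 50 the share was highest for shARID1A rapamycin and next highest for shARID1A DMSO, while the shControl lists changed places between bins.

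**Figure D1:**
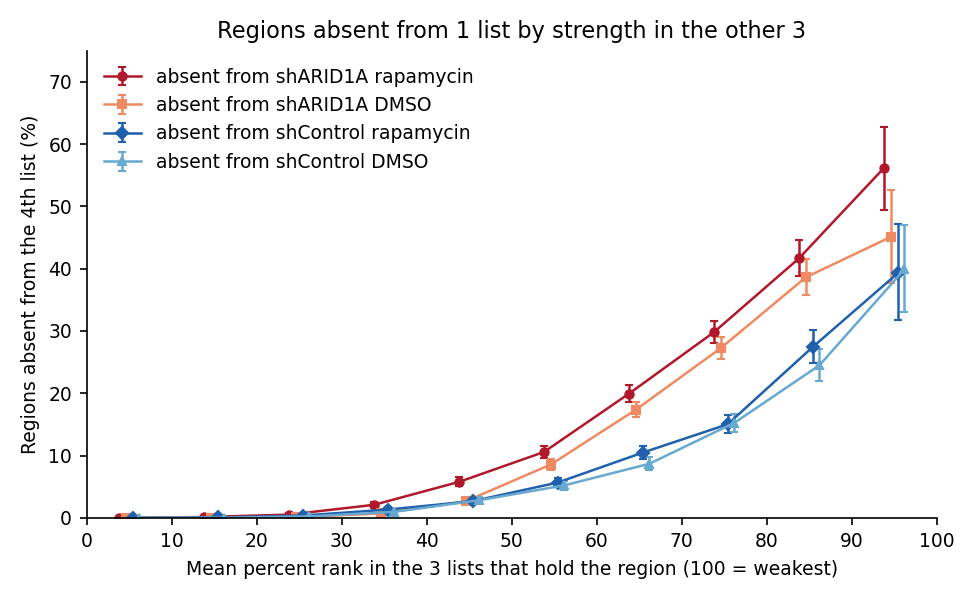
Share of regions, in percent, absent from 1 list by their mean percent rank in the 3 lists that hold them (0 strongest, 100 weakest), for each of the 4 lists; bars are exact 95% intervals. The share for shARID1A rapamycin reaches 56.2% in the weakest bin and is 0 in the strongest.

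The members were spread over gene bodies and the spaces between genes. In the authors' annotation 1498 lay in introns (52.4%), 988 were intergenic (34.6%), 174 were at a promoter (6.09%), 110 in exons (3.85%) and 87 at a transcription end (3.05%). Among regions in all 4 lists weak ones were less often promoters, so these regions were also weighted to the members' mean ranks. The share within 1 kb of a TSS was 7.81% among members (6.85 to 8.85), against 36.8% of the 31585 regions in all 4 lists and 14.98% of these after weighting. Introns held 52.4% of members and 46.7% of the weighted regions, and the intergenic shares, at 34.6% and 32.7%, were close. Among sets chosen in the same way, the share within 1 kb of a TSS was 5.46% for regions absent only from shARID1A DMSO, 11.2% for shControl rapamycin and 15.6% for shControl DMSO. Both shARID1A sets were, in the lists as deposited, poorer in promoters than both shControl sets.

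**Figure D2:**
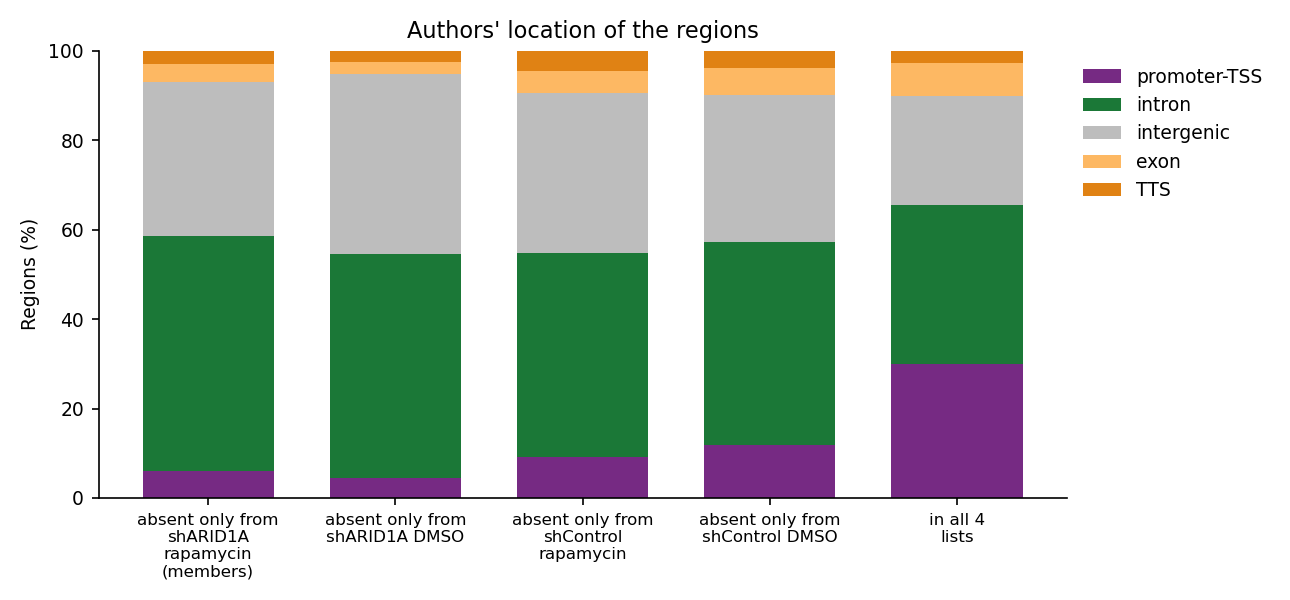
Authors' location of regions, in percent of each set, for the 2857 members, the 3 sets absent from 1 other list and the regions in all 4 lists. The promoter segment is 6.09% in the members and 30.01% in the regions of all 4 lists, and introns take 52.4% and 35.6%.

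Median distance to the nearest TSS was 16713 bp among members and 5807 bp among regions in all 4 lists, without weighting. For regions absent only from shARID1A DMSO, shControl rapamycin and shControl DMSO it was 21753.5, 13460 and 12541.5 bp. Distances of 10 to 50 kb held 1302 members (45.6%), distances of 1 to 10 kb held 805 (28.2%) and distances over 100 kb held 182 (6.37%). At 10 to 50 kb the shares of the same 3 sets were 44.8%, 40.6% and 43.2%, so the members were close to them. Members had a median merged width of 804 bp, with quartiles of 644 and 1007 bp, against 1117 bp in regions of all 4 lists. A member joins the peaks of 3 lists and a region in all 4 lists those of 4, so these widths are not like for like. The sets absent from 1 other list had medians of 798.5 bp for shARID1A DMSO, 720 bp for shControl rapamycin and 761 bp for shControl DMSO, close to or below that of the members. Members fell inside a RefSeq coding gene in 53.7% of cases (51.8 to 55.5), against 56.2% of regions in all 4 lists without weighting. The sets absent only from shARID1A DMSO, shControl rapamycin and shControl DMSO had 47.4%, 49.4% and 53.4%. The nearest gene named by the authors was coding for 37.5% of members, a pseudogene for 16.2% and a long non-coding RNA for 8.02%. In regions of all 4 lists these shares were 52.1%, 11.98% and 7.17%, also without weighting. The remaining names were not in the RefSeq table or were of other kinds.

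In the lists that held them, members were weaker in shARID1A DMSO than in either shControl list. Their median percent rank was 75.4 in shARID1A DMSO, 67.5 in shControl rapamycin and 63.7 in shControl DMSO. Regions in all 4 lists, weighted to the same mean ranks, had medians of 70.9, 68.6 and 66.8. Percent rank in shARID1A DMSO minus that in shControl DMSO had a median of 9.73, and 2063 members (72.2%, 70.5 to 73.8) were weaker in shARID1A DMSO. The weighted share among regions in all 4 lists was 57.5%. Between shControl rapamycin and shControl DMSO the median difference was 3.09, and 1635 members (57.2%) were weaker in rapamycin, against 54.0% of the weighted regions. With ranks recomputed among the regions that the 3 lists share, 61.1% of members were weaker in shARID1A DMSO than in shControl DMSO and 52.9% weaker in shControl rapamycin than in shControl DMSO. No such shares were computed for regions in all 4 lists on these ranks. Whether the numbers that the shARID1A DMSO list skips shift its ranks was not tested.

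The list with the weakest rank was shARID1A DMSO for 1540 members (53.9%, 52.1 to 55.7), shControl rapamycin for 783 (27.4%) and shControl DMSO for 534 (18.7%). The weighted shares among regions in all 4 lists were 40.0%, 32.4% and 27.6%. A like excess was seen in the other sets, always in the library with the same hairpin. Regions absent only from shARID1A DMSO were weakest in shARID1A rapamycin in 54.4% of cases, against 43.0% after weighting. Those absent only from shControl rapamycin were weakest in shControl DMSO in 37.1% of cases against 25.2%, and those absent only from shControl DMSO were weakest in shControl rapamycin in 40.8% against 27.4%. An excess of regions weakest in the library that shares the hairpin was therefore found in all 4 sets and is not particular to the members. Among the members it was found at promoters and at distal regions alike: shARID1A DMSO was weakest at 94 of the 223 promoter members (42.2%, 35.6 to 48.9), against 26.0% of promoter regions in all 4 lists after weighting, and at 54.9% of the distal members (53.0 to 56.8), against 42.6%.

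**Figure D3:**
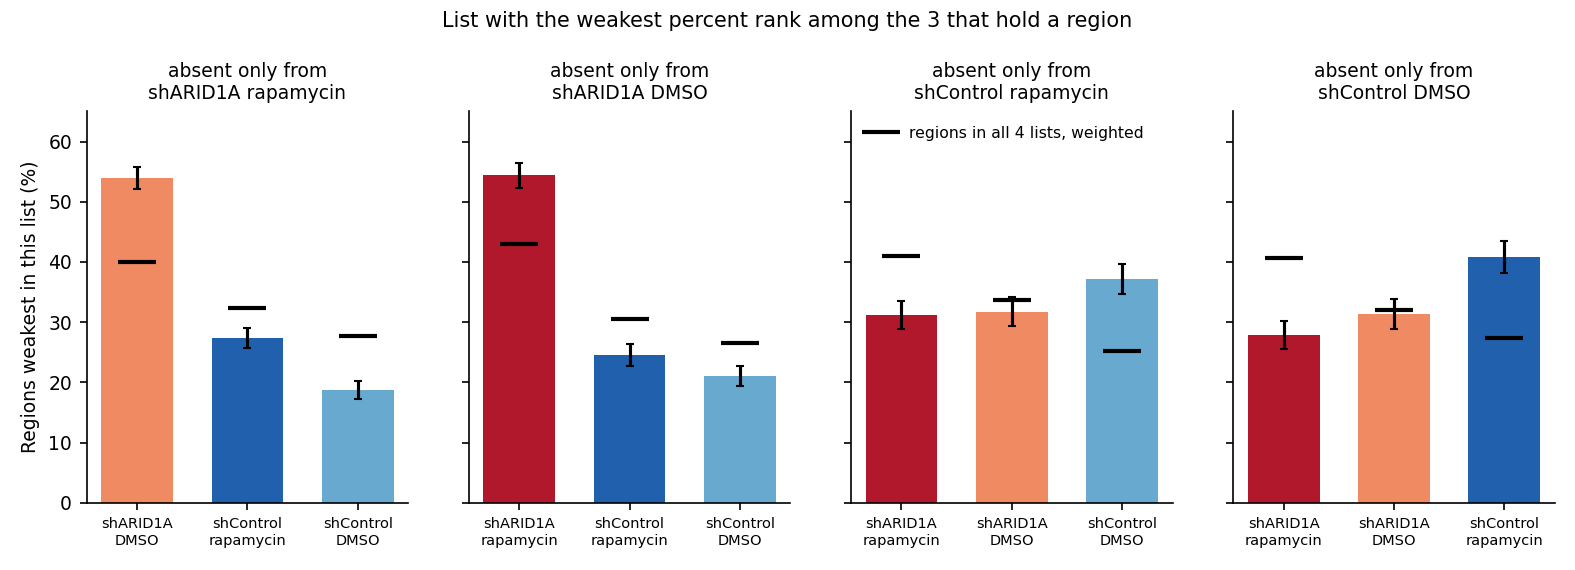
Share of regions, in percent, whose percent rank is weakest in each of the 3 lists that hold them, for the members (first panel) and the 3 sets absent from 1 other list; bars have exact 95% intervals and black lines mark regions in all 4 lists weighted to the same mean ranks. In each panel the library with the same hairpin as the absent one exceeds its line, at 53.9% against 40.0% for the members.

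Few members were strong. Of the 2857, 10 had a mean percent rank of at most 25, 30 of at most 30 and 377 of at most 50, and 134 lay in the stronger 50% of all 3 lists. The strongest was a region in intron 3 of MBTPS1, which encodes the Golgi protease that activates SREBP sterol regulators, at chr16:84096538-84097254. It stood at 21.7, 7.60 and 9.10 in shARID1A DMSO, shControl rapamycin and shControl DMSO, and so was weaker in the shARID1A library than in both shControl libraries. A region 23831 bp downstream of the TSS of IER5, an immediate early gene, at chr1:181111951-181112965, was also weakest in shARID1A DMSO, with 20.2, 12.02 and 10.8. So was the region in intron 3 of ATG7, an enzyme that starts the conjugation steps of autophagosome formation (chr3:11302440-11303022), with 30.7, 14.7 and 10.2.

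Other strong members were weakest in shControl rapamycin. The LLGL1 promoter region (chr17:18224967-18226370) stood at 12.7, 21.7 and 10.0 in the same order. Its peak in shARID1A DMSO lay over the start of the gene and those of the shControl lists just upstream of it, and they shared bases. A region in intron 1 of PDGFC, a platelet-derived growth factor ligand (chr4:156941862-156942689), stood at 17.8, 23.6 and 10.7. CYBRD1, a ferric reductase of iron uptake, held one in intron 2 (chr2:171553847-171554510) with nearly equal ranks of 19.9, 22.1 and 20.7. The promoter region of KIF21B, a kinesin motor, at chr1:201023020-201024071 stood at 23.1, 26.4 and 21.5, and its nearest TSS in the authors' table was that of the non-coding gene AL358473.1.

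The remaining 5 of the 12 strongest were mixed in kind. AC131212.1, a non-coding gene, had its promoter region (chr12:132593765-132594252) at 16.6, 17.1 and 21.7, so that it was strongest in shARID1A DMSO. A region in intron 4 of RASL12, a Ras-like GTPase gene, stood at 28.1, 21.8 and 15.8, and one 7744 bp upstream of the TSS of PTPRF, a receptor tyrosine phosphatase, at 25.2, 34.0 and 12.2. ANKRD11, an ankyrin repeat regulator of chromatin, held one in intron 7 with even ranks of 24.5, 27.2 and 25.8. An intergenic region of chromosome 12 near AC137768.1 stood at 34.3, 28.0 and 15.6. Across the 12, shARID1A DMSO held the weakest rank at MBTPS1, IER5, ATG7, RASL12 and AC137768.1, shControl rapamycin at LLGL1, PDGFC, CYBRD1, KIF21B, PTPRF and ANKRD11, and shControl DMSO at AC131212.1.

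**Figure D4:**
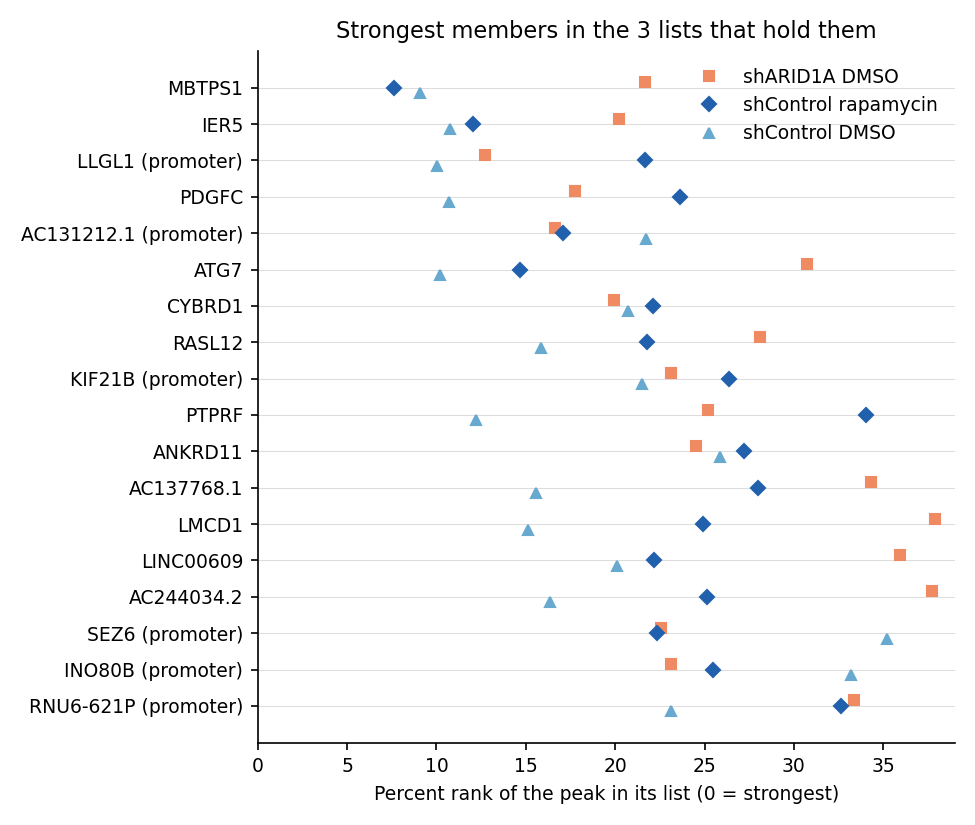
Percent rank (0 strongest) of the 12 strongest members and of the next 3 promoter and 3 distal members in shARID1A DMSO, shControl rapamycin and shControl DMSO, 1 point per list. Ranks at MBTPS1 run from 7.60 to 21.7, and at CYBRD1 and ANKRD11 the 3 points nearly coincide.

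The next strong distal members were a region 14786 bp upstream of LMCD1, a cofactor with LIM domains, at 37.9, 24.9 and 15.1, one in intron 1 of LINC00609 at 36.0, 22.2 and 20.1, and an intergenic one near AC244034.2 at 37.7, 25.1 and 16.3. These 3 were all weakest in shARID1A DMSO. The next promoter members were mixed. The promoter of SEZ6, a neuronal membrane protein gene, stood at 22.6, 22.3 and 35.2 and that of INO80B at 23.1, 25.5 and 33.2, so both were weakest in shControl DMSO. A region at RNU6-621P, a pseudogene of U6 RNA, stood at 33.4, 32.6 and 23.1 and was weakest in shARID1A DMSO.

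The 223 promoter members belonged to 223 genes by the authors' annotation, 102 of them coding in RefSeq. Another promoter peak was present in shARID1A rapamycin for 11 of these genes, 8 of them coding, among them NNMT, which encodes a nicotinamide methyltransferase. After LLGL1, SEZ6, INO80B and KIF21B, the strongest promoter members of coding genes are named here by mean percent rank, a choice made after the values were seen. NANOS1, an RNA-binding regulator of translation, had even ranks of 34.1, 34.8 and 35.3 in shARID1A DMSO, shControl rapamycin and shControl DMSO, and KCTD17 stood at 35.2, 40.7 and 31.4. The deubiquitinase gene USP7 stood at 37.9, 46.5 and 40.2 and the forkhead factor gene FOXD1 at 32.8, 54.6 and 42.8. VEGFD stood at 45.1, 52.9 and 41.1, and ITGA4, an integrin chain of cell adhesion, at 45.6, 52.4 and 41.0. APOA5, a liver-made regulator of plasma triglycerides, stood at 34.2, 63.2 and 46.6. Of these 7 only NANOS1 was not weakest in shControl rapamycin.

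Promoter windows under the members were set beside those of regions in all 4 lists. Members covered at least 150 bases of 141 windows, in 124 regions, against 14959 windows for regions in all 4 lists. Median GC content, which was not weighted to the members' ranks, was 62.0% for the members, 66.3% for regions in all 4 lists and 58.7% over all 34943 windows. The SP/KLF motif was found in 72 of the 141 windows (51.1%, 42.5 to 59.6), in 72.2% of windows of regions in all 4 lists, in 57.3% of these after weighting to the members' ranks and in 44.9% of all windows. The AP-1 motif was found in 17 windows (12.1%, 7.18 to 18.6), against 4.49%, 6.88% after weighting and 7.72% of all windows. With the 200 bases nearest the start in place of 300, a window added after the data had been seen, it was 9.22% of member windows (5.001 to 15.3), against 3.05%, 3.92% after weighting and 5.35% of all windows. TEAD motifs (GGAATG) were in 9.22% of member windows of 300 bases (5.001 to 15.3), against 10.8% of windows in all 4 lists, 13.98% of these after weighting and 14.04% of all windows. Of 13 motifs searched, ETS was in 2.13% of member windows, against 8.40%, 2.36% after weighting and 4.11% of all windows. The weighted shares of regions in all 4 lists lay inside the members' intervals for SP/KLF, TEAD and ETS, and below it for AP-1. These intervals are not adjusted for the number of motifs. These matches describe letters in the windows, several windows share a region, and no motif search was made for the distal members.

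Many members had a peak of shARID1A rapamycin nearby. The nearest peak of that list lay at a median of 11659 bp from the edge of a member, within 10 kb for 1287 members (45.05%, 43.2 to 46.9), within 1 kb for 120 and within 100 bases for 8. This is not particular to the members. Regions absent only from shControl rapamycin and only from shControl DMSO had a peak of the list that lacks them within 10 kb in 48.0% and 48.2% of cases. For regions absent only from shARID1A DMSO the share was 30.2%. The medians in that order were 10701, 10427 and 18881 bp. Within 50 kb of a member the median number of other peaks was 3 in each of the 4 lists, with means of 2.91 in shARID1A rapamycin, 3.09 in shARID1A DMSO, 3.23 in shControl rapamycin and 3.37 in shControl DMSO. Members with 0 other peaks within 50 kb numbered 346, 365, 300 and 272 in that order. Members followed each other along the chromosomes about as often as their overall share. The next region held by the other 3 lists was also absent from shARID1A rapamycin for 255 members (8.93%, 7.90 to 10.0), against 8.24% after a region that was present.

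At IER5 the TSS region was present in all 4 lists, at 9.40, 7.47, 12.3 and 13.3 in shARID1A rapamycin, shARID1A DMSO, shControl rapamycin and shControl DMSO. A region 16391 bp downstream of the TSS was also present in all, at 21.7, 14.0, 16.3 and 22.9, and further ones lay 29289 and 38577 bp downstream. Only the region at 23831 bp among these was absent from shARID1A rapamycin. Around the LLGL1 promoter, a region upstream of it, with a distance of -8135 bp to the TSS, was present in all 4 lists, at 36.9, 34.1, 23.4 and 39.4, while the promoter member had 0 peaks in shARID1A rapamycin. Within 50 kb of the MBTPS1 member 4, 4, 4 and 5 other peaks were listed, and within 50 kb of the LLGL1 member 4, 4, 6 and 5.

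**Figure D5:**
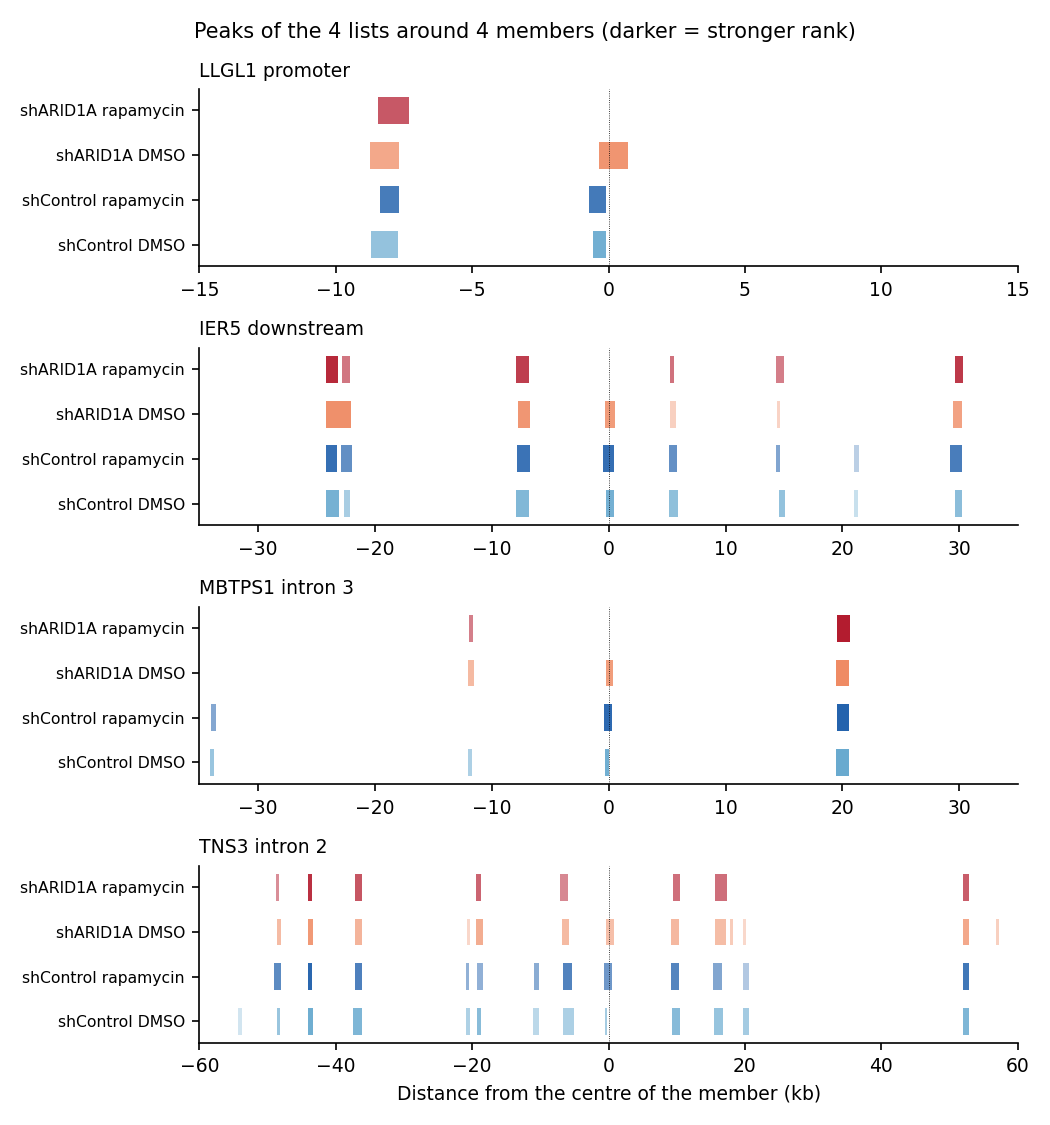
Peaks of the 4 lists around the members at LLGL1, IER5, MBTPS1 and TNS3, by distance from the centre of the member in kb; 1 row per list, shARID1A rapamycin at the top, with darker bars for stronger percent ranks. At distance 0 the row of shARID1A rapamycin is empty, while its other peaks in the 4 windows mostly match peaks of the other rows.

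Most genes had 1 member. By the authors' nearest gene 2446 names had 1, 163 had 2, 23 had 3 and 4 had 4, and one of these last, RF00322, is an RNA family name used on 10 chromosomes. MAP4K4, a kinase gene of JNK and Hippo signalling that is not on the Hippo gene list counted below, had 14 regions nearest to it. Of these, 3 were in all 4 lists and 4 were members of the set. The peaks of MAP4K4 numbered 7 in shARID1A rapamycin, 9 in shARID1A DMSO, 11 in shControl rapamycin and 8 in shControl DMSO. The strongest of its members, in intron 5 (chr2:101827006-101827854), stood at 75.3, 48.7 and 35.5 in the last 3 lists, while the promoter was present in all, at 14.2 in shARID1A rapamycin and 17.1 in shControl DMSO.

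TNS3, which encodes the focal adhesion protein tensin 3, had 22 regions, 9 in all 4 lists and 4 members, with 10, 16, 18 and 16 peaks in shARID1A rapamycin, shARID1A DMSO, shControl rapamycin and shControl DMSO. The strongest TNS3 member, in intron 2 (chr7:47518547-47519980), stood at 60.4, 46.5 and 54.6, and a region 64078 bp from the TSS was strong in all 4 lists, at 13.6, 17.5, 5.49 and 7.35. TLK1, a kinase that acts on histone chaperones, had 11 regions, 3 in all 4 lists and 4 members, with 5, 9, 9 and 7 peaks. Its members ranked between 47.8 and 88.5. When each region was given to the nearest RefSeq coding gene, 8 genes had at least 5 members, chosen here after their values were seen. Of regions held by the other 3 lists, MAP4K4 had 5 of 9 absent from shARID1A rapamycin, PCSK5, a proprotein convertase gene, 7 of 19, AUTS2 6 of 16, and TNS3 6 of 30. Over all regions held by the other 3 lists the share absent was 8.30%, and over distal ones 11.7%. The genes were picked for their number of members, and these counts were not compared with a chance level.

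The 4 widest members differed in strength. A region of 2305 bp in intron 1 of MBNL2, a splicing factor gene, stood at 83.7, 72.7 and 85.5 in shARID1A DMSO, shControl rapamycin and shControl DMSO. One of 2166 bp in LINC01619 stood at 85.6, 97.0 and 74.4, and an intergenic one of 2146 bp near RPS27P18 at 80.8, 54.2 and 62.6. The region of 2047 bp in intron 9 of PTBP3, an RNA-binding splicing regulator, was the strongest of the 4, at 58.1, 40.3 and 32.3.

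Gene groups were read from 18 lists, by the authors' nearest gene and then by the nearest RefSeq coding gene. By the authors' nearest gene 33 members fell to listed genes, and in each of the 18 lists the interval of the share absent included the 8.30% of all regions. YAP/TEAD target genes, which answer to the Hippo pathway, had 7 of 56 regions absent (12.5%, 5.18 to 24.1). They were at GADD45A, a stress response gene with 2 members, and at AMOTL1, ARHGEF17, ASAP1, NUAK2 and TGFB2 with 1 each. The stronger GADD45A member, 12604 bp from its TSS, stood at 60.6, 33.9 and 41.9. For this member the nearest RefSeq coding gene was GNG12, at 3646 bp. mTOR complex and regulator genes had 3 of 63 absent (4.76%, 0.993 to 13.3), SREBP and lipid synthesis genes 1 of 36, lysosome and autophagy genes 0 of 34 (0 to 10.3%) and hepatocyte genes 4 of 71 (5.63%, 1.56 to 13.8).

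Members of the other lists are named if they were among the strongest 25% of members. PSAT1, an enzyme of serine synthesis and a target of ATF4, had 2 members by the authors' nearest gene, the stronger at 64.5, 37.0 and 36.4 in shARID1A DMSO, shControl rapamycin and shControl DMSO. For this stronger member the nearest RefSeq coding gene was CEP78, at 7338 bp. ACTL6B, the subunit of the neuronal BAF complex, had 1 in intron 4 at 55.9, 47.6 and 38.9. SMURF2, a ubiquitin ligase that restrains TGF-beta signalling, had 1 at 82.0, 47.0 and 39.8, and MAP2, a neuronal microtubule protein, had 2, the stronger at 45.0, 55.6 and 46.4. Those at PSAT1, ACTL6B and SMURF2 were weakest in shARID1A DMSO and that at MAP2 in shControl rapamycin. TGF-beta genes had 4 of 58 regions absent, AP-1 and immediate early genes 2 of 46, epithelial-mesenchymal transition genes 1 of 30, cell cycle genes 0 of 33, glycolysis and hypoxia genes 3 of 31, liver progenitor and biliary genes 2 of 36, Hippo pathway genes 1 of 31, SWI/SNF genes 1 of 23 and ATF4 targets 2 of 27. Markers of other cells had 0 of 5 absent for leukocytes, 0 of 5 for endothelium, 1 of 9 for stellate cells and fibroblasts and 3 of 19 for neurons.

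By the nearest RefSeq coding gene, an assignment added after the data had been seen, 132 members fell to listed genes. The mTOR list then had 19 of 134 regions absent (14.2%, 8.76 to 21.3), and was the only one of the 18 whose interval, not adjusted for the number of lists, lay above 8.30%. Among its distal regions 18 of 102 were absent (17.6%, 10.8 to 26.4), an interval that includes the 11.7% of all distal regions. Its members were nearest to 12 genes, among them IGF1R, a receptor upstream of mTORC1, with 3, IRS1 and IRS2, the adaptors of that receptor, with 3 and 2, and RRAGD and RPTOR, which bring mTORC1 to lysosomes, with 1 each. The IRS1 and IRS2 members lay outside these genes, from 47668 to 287871 bp away. The strongest member of the mTOR list, in IGF1R (chr15:98674124-98675081), stood at 33.3, 37.6 and 44.6 in shARID1A DMSO, shControl rapamycin and shControl DMSO. YAP/TEAD targets had 17 of 164 absent (10.4%, 6.16 to 16.1), Hippo genes 7 of 62, TGF-beta genes 19 of 197 (9.64%, 5.91 to 14.7), hepatocyte genes 13 of 159 (8.18%, 4.43 to 13.6) and ATF4 targets 0 of 37 (0 to 9.49%). Lysosome and autophagy genes had 5 of 48 (10.4%, 3.47 to 22.7), among them the strong region in ATG7. SREBP and lipid synthesis genes had 4 of 67 (5.97%, 1.65 to 14.6), among them the strong region in MBTPS1. The authors' nearest genes for these strong regions were AC083855.1 and AC040169.3. The SWI/SNF list had 2 of 61, and one of them lay in an intron of ARID1A itself (chr1:26705197-26706598), at 61.7, 43.3 and 52.8. Leukocyte markers had 3 of 16 (4.05 to 45.6%), endothelial markers 4 of 21 (5.45 to 41.9%), stellate cell and fibroblast markers 2 of 20 and neuron markers 3 of 45. Epithelial-mesenchymal transition genes had 9 of 69, glycolysis and hypoxia genes 8 of 62 and cell cycle genes 5 of 66. Liver progenitor and biliary genes had 8 of 85 and AP-1 and immediate early genes 8 of 132.

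Just inside the rule, members near AL365434.1, AC010406.1 and RN7SL807P lay 17, 26 and 28 bp from a shARID1A rapamycin peak. The first of these lies 64495 bp from ANKRD1, a YAP target, and stood at 97.6, 76.7 and 74.0. Just outside the rule, regions in SLC24A4, near RPL17P2 and in TNN were in all 4 lists and shared 1, 7 and 31 bases between their shARID1A rapamycin peak and the nearest other peak. Of the regions in all 4 lists, 777 (2.46%) had a shARID1A rapamycin peak in the weakest 10% of that list.

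Across chromosomes the share of distal regions absent from shARID1A rapamycin ranged from 8.70% on chromosome 19 and 8.90% on chromosome 17 to 13.5% on chromosome 18 and 13.7% on chromosome 14 (11.1 to 16.6). The share of all distal regions, 11.7%, lies above the intervals of chromosomes 19 and 17 and inside those of chromosomes 18 and 14. These are the extremes of 23 chromosomes, and the intervals are not adjusted for that number.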

How the data were processed

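ATAC-seq peak lists of 4 libraries were used, 1 for each group, per the labels. The submitters' processing notes name BWA, MACS2 2.0 and the build GRCh38 (hg38). The sources used here give no settings, treatment of the transposase offset or duplicates, or read depth. Each list gives a peak's position, score, annotation, nearest gene and distance to its TSS, per the file headers. The deposited score is the authors' own value of unstated scale and was used only to rank peaks within a list. The deposited distance, in bp, was read from the shControl DMSO peak of a region.

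Members and gene lists were chosen with earlier results of these data known. Peaks sharing at least 1 base were merged. Weighting used 20 bins of mean percent rank. With 1 library per group no test across samples was possible, and shares have exact Clopper-Pearson 95% intervals. Named members were the 12 strongest, the 4 widest, the genes with most members, members of 18 gene lists among the strongest 25% of members, those closest to the edge of the rule, and the next 3 promoter and 3 distal members. Nearest coding genes and promoter windows came from RefSeq tables of GRCh38.p14. Motifs were searched in these windows, and in the 200 bases of each nearest the start, in place of windows centred on peaks, for which no genome was used here. Merging was tested on simulated lists. Python 3.11.15, pandas 2.3.3, NumPy 2.4.6, SciPy 1.17.1 and matplotlib 3.10.9 were used.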

Additional observations from a re-analysis of the deposited data

Results flagged for a closer look

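Of the 2857 members, 1222 (42.8%, 40.9 to 44.6) had a stronger percent rank in shControl rapamycin than in shControl DMSO, although all are absent from shARID1A rapamycin and present in shARID1A DMSO. Of the regions in all 4 lists, weighted to the members' mean ranks, 46.0% were stronger in shControl rapamycin, so the share of members is no higher than that background. For the 1222 members the 2 lists of each hairpin thus differ in opposite directions between rapamycin and DMSO. The direction in shARID1A cells is fixed by the choice of members, each direction rests on 1 library per group, and the difference was not tested. Among the 1222 is the MBTPS1 region, at 7.60 in shControl rapamycin and 9.10 in shControl DMSO.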

How the results depend on the processing

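The number of members was 2857, and stayed between 2254 and 2986 with 500 bases of joining, an overlap of 50% of the shorter peak, equal numbers of peaks, chromosomes 1 to 22 and X, or each shControl DMSO peak taken by itself. With the stronger 50% of each list it was 1331, and 11.7% of these regions were promoter regions. The shares absent were then 6.95%, 4.23%, 3.68% and 3.56% for shARID1A rapamycin, shARID1A DMSO, shControl rapamycin and shControl DMSO. Since this setting also cuts the shARID1A rapamycin list, the 1331 include regions with a weaker peak there and are not a part of the 2857. Equal numbers of peaks gave 6.88% for shARID1A rapamycin, 5.70% for shARID1A DMSO and 5.55% for shControl DMSO, and the 50% overlap gave 6.42% for shARID1A DMSO. A promoter limit of 500 bases gave 5.22% and one of 2 kb 11.6%. Ranks among shared regions gave medians of 88.2, 85.5 and 84.4 in shARID1A DMSO, shControl rapamycin and shControl DMSO, and these lists were weakest for 44.1%, 30.1% and 25.7% of members. These shares were not computed for regions in every list. The width of the shControl DMSO peak alone had a median of 546 bp. A peak of shARID1A rapamycin lay within 50 kb of 87.9% of members and within 1 kb of 4.20%. By RefSeq coding genes 132 members fell to the lists, against 33. All 12 strongest members remained members under each of the 6 alternatives that redefine membership. For them this was fixed in advance with equal numbers of peaks, the stronger 50% and chromosomes 1 to 22 and X. Those settings only remove peaks, and peaks as strong as theirs, on these chromosomes, are kept. Of all 46 named regions 18 remained members with the stronger 50%. Apart from the settings' own construction, the cause of these shifts was not tested.

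Not run were windows of 200 and 500 bases centred on peaks, which need a genome, and the share absent from shControl DMSO by its own peaks, which has no such peak to start from. No paired analysis was possible because each group held 1 library, so none was left out. Read depth is unknown, and a region without a listed peak is not shown to be closed.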

Other observations

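By the nearest RefSeq coding gene, an assignment chosen after the data had been seen, genes of TGF-beta signalling had 19 members nearest to 13 genes. Some lay far from the gene, such as 317195 and 368849 bp from ID2 and 413428 bp from ACVR2A. SMAD7, the inhibitory SMAD, had 3. The strongest, 39859 bp from the gene, stood at 66.6, 38.3 and 53.3 in shARID1A DMSO, shControl rapamycin and shControl DMSO. SMAD3, a receptor-activated SMAD, had 2, and one at a promoter annotation stood at 99.4, 82.7 and 73.7, near the end of the shARID1A DMSO list. SMAD4, the common partner SMAD, had 1 at 91.1, 61.3 and 69.2. Among genes of the liver, AFP, the fetal serum protein, had 1 intronic member at 76.0, 95.8 and 58.9, TTR, the carrier transthyretin, 1 at 93.8, 88.5 and 53.2, and NR5A2, a nuclear receptor of bile acid synthesis, 2, the stronger at 60.0, 57.9 and 29.7. The other member assigned to NR5A2, intergenic and 564273 bp from the gene, stood at 63.9, 60.7 and 95.2. The members at SMAD4 and TTR and the stronger one at NR5A2 were weakest in shARID1A DMSO, that at AFP in shControl rapamycin and the other at NR5A2 in shControl DMSO. The shares of these lists absent from shARID1A rapamycin, 9.64% and 8.18%, had intervals that included the 8.30% of all regions.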
